A study of Mus musculus with 12 samples.

Results

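The genes described here encode the protein subunits of oxidative phosphorylation, the 5 enzyme complexes of the inner mitochondrial membrane that pass electrons from NADH and succinate to oxygen and make ATP. They were chosen by gene name alone: the mitochondrially encoded Nd, Co, Atp and Cyt genes, the numbered Ndufa, Ndufb, Ndufc, Ndufs and Ndufv genes, Sdha to Sdhd, and all genes beginning with Uqcr, Cox4 to Cox8 or Atp5. Of 112 matching entries, 14 that are named or annotated as pseudogenes were left out. The remaining 98 genes comprised 13 encoded by mitochondrial DNA and 85 encoded in the nucleus, out of 40077 genes in the cell tables and 34508 in the tumor tables. The nuclear members lay on 19 chromosomes and comprised 35 subunits of complex I, 4 of complex II, 8 of complex III, 20 of complex IV or its close partners and 18 of ATP synthase (complex V).

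The samples were 12 mouse RNA sequencing libraries in 4 groups of 3. Myc-CaP cells, a mouse prostate cancer line derived from a tumor in which a probasin promoter drives human MYC in the prostate epithelium, were treated with DMSO or with YJ1206 for 24 hours. Myc-CaP tumors grown under the skin of male FVB mice came from animals given vehicle or oral YJ1206. YJ1206 is a PROTAC, a small molecule that brings CDK12 and CDK13 to an E3 ubiquitin ligase for degradation, and all groups carried the same MYC transgene. The tumors contain host cells besides the cancer cells, and in such bulk samples fewer cells of a type and less RNA per cell cannot be told apart.

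CDK12 and CDK13 are cyclin-dependent kinases that phosphorylate the C-terminal tail of RNA polymerase II, the polymerase that transcribes the nuclear genes, and CDK12 loss is known to impair the full-length transcription of long genes in particular. Mitochondrial DNA is transcribed by a different enzyme, the single-subunit polymerase Polrmt, with Tfam and Tfb2m as its partners. That polymerase makes long transcripts of each strand that are cut into single mRNAs at the tRNAs between them, and the mRNAs are stabilized by Lrpprc and Slirp. Complexes I, III, IV and V are assembled from subunits of both genomes, whereas complex II is wholly nuclear, so the members can be read as products of separate transcription systems that meet in the same enzymes.

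The mitochondrial genes lie close together, and some share bases. On the GRCm38 mitochondrial chromosome, mt-Atp8 ends inside mt-Atp6: the 43 bases at chrM:7927-7969 belong to both and form 21.1% of mt-Atp8. They are shown because a read inside this stretch could belong to either gene, and capitals mark the start codon of mt-Atp6.
mt-Atp8 and mt-Atp6, shared bases: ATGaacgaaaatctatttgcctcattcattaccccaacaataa
mt-Nd4l and mt-Nd4 share 7 bases, and mt-Nd5 and mt-Nd6 share 14 bases on opposite strands. Whether the authors' counting used the strand is not given in the sources used here, so reads of mt-Nd5 and mt-Nd6 from that stretch may not have been kept apart.

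A second kind of sharing bears on several values below. A stretch of nuclear chromosome 1 carries near-perfect copies of mitochondrial genes, entered in the annotation as separate genes. Gm28661 (chr1:24614885-24615565, minus strand) had 681 of the 684 bases of mt-Co2 with 0 differences and lacked only its last 3 bases. Gm10925 (chr1:24613974-24614651) had 678 of the 681 bases of mt-Atp6, Gm28437 (chr1:24613189-24613971) had 783 of the 784 bases of mt-Co3, and Gm28438 (chr1:24612775-24613119) had 345 of the 348 bases of mt-Nd3 with 1 difference, T3C, counted from the first base of mt-Nd3. The ends of these mitochondrial genes are given because only the capital bases, and what lies across them, set the gene apart from its nuclear copy (mt-Nd3 has also the 1 difference).
mt-Co2 end: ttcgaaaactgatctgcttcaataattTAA
mt-Atp6 end: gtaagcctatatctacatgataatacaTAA
mt-Co3 end: tacgtctccatttattgatgaggatctT
mt-Nd3 end: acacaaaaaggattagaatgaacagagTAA
The authors' processing notes name kallisto, which shares out reads between transcripts by the short sequence words they contain. Of all 31-base words in the mitochondrial members, a median of 62.8% per gene were also found in another annotated gene, 7 of the 13 genes shared over 50% of theirs, and mt-Nd1 shared none. For the 85 nuclear members the median was 4.98%.

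Library depth ranged from 13936984 to 18520071 estimated counts in the cells and from 15391684 to 26928447 in the tumors. The DMSO and the YJ1206 cell libraries were numbered in separate runs of numbers, and if these mark batches, the batch cannot be told apart from the treatment. In the tumors, library 3 of each group lay between libraries 1 and 2: of the 583 genes at least 2-fold apart between vehicle libraries 1 and 2, 98.8% had an intermediate value in library 3, and for YJ1206 the share was 94.4% of 195 genes. Tumor values are therefore given with and without the libraries on which they rest. Skeletal muscle markers, 17 genes in all, summed to 1515, 433 and 1073 TPM in the vehicle tumors and to 274, 337 and 318 in the YJ1206 tumors, with 14 of the 15 tested called lower and Acta1 (skeletal muscle actin) at 315, 6.42 and 185 against 2.64, 0.961 and 1.72. In the cultured cells the same 17 genes summed to 285 to 299 TPM with DMSO and 136 to 141 TPM with YJ1206. Acta1 was there at 0.140 to 0.464 and 1.83 to 2.45 TPM. The prostate markers Pbsn and Tmprss2 and the epithelial markers Epcam, Cldn7 and Esrp1 were at or under 3 counts in every cell library. All p values over genes are from edgeR's quasi-likelihood test with Benjamini-Hochberg adjustment over all genes tested, and a gene was called at an adjusted p under 0.05. The labels do not tie the 3 libraries of a group to separate cultures or animals, while the study's statistics section describes its data in general as biological replicates. The p values measure the spread between these libraries, whichever it is. Whether tumor library 3 is independent of libraries 1 and 2 is not given in the sources used here. If it is not, the spread and the p values given for the tumors are too low. CPM is a count scaled to library size, here adjusted between libraries by the trimmed mean of M values (TMM), and is used to compare libraries. TPM is an abundance that corrects for transcript length and sums to the same total in every library, and is used to compare genes.

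In the Myc-CaP cells, transcripts of all 13 mitochondrial genes rose with YJ1206. Their summed share of all TPM was 9.29, 8.88 and 8.87% with DMSO and 13.1, 13.1 and 13.2% with YJ1206, a mean of 9.01% ± 0.242 against 13.1% ± 0.0541 (SD, n = 3 each), or 1.46 times as much (p = 0.1 by exact permutation, two-sided, which is as low as 3 libraries against 3 can reach). The share of the 85 nuclear genes went the other way, from 2.39% ± 0.00518 to 2.30% ± 0.00918 (SD, n = 3), with each YJ1206 library under each DMSO library (exact permutation p = 0.1). As a share of counts in place of TPM, the nuclear genes were higher with YJ1206, at 0.957% against 0.928%, and the mitochondrial genes at 5.11% against 3.40%. The ratio of mitochondrial to nuclear TPM, which does not depend on scaling between libraries, rose by 0.59 on the log2 scale (SE 0.0239, 1.51-fold, exact permutation p = 0.1), from 1.92 ± 0.0415 to 2.51 ± 0.000925 (SD, n = 3). In the tumors the same ratio was 1.33 ± 0.278 with vehicle and 1.33 ± 0.0610 with YJ1206 (SD, n = 3), a difference of -0.0017 (SE 0.164, exact permutation p = 1.0).

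**Figure D1:**
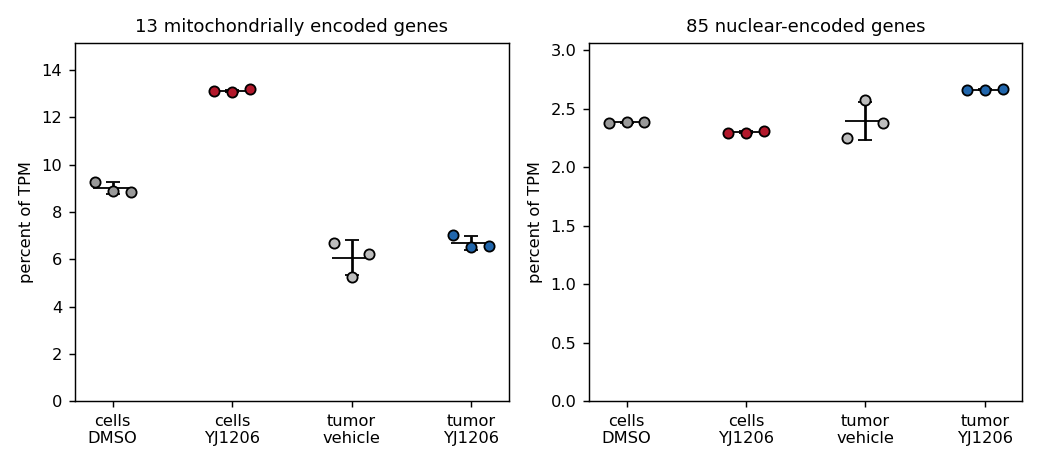
Summed TPM of the 13 mitochondrial genes (left) and the 85 nuclear genes (right) as a percentage of all TPM in each library, with points for the 3 libraries of each group and bars for mean and SD. The mitochondrial share of the YJ1206 cells, 13.1 to 13.2%, lies above all DMSO libraries, whereas the tumor groups overlap; the nuclear share is lower with YJ1206 in the cells and higher in the tumors.

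Complex I holds 7 mitochondrial subunits, which form the core of its membrane arm. mt-Nd1 was at 3613, 3441 and 3431 CPM with DMSO and 6151, 6184 and 6419.6 CPM with YJ1206 (log2 fold change 0.84 ± 0.0211 (SE), adjusted p = 1.00e-22). mt-Nd3, a small subunit at the joint of the arms, was at 204, 153 and 166 CPM with DMSO and 408, 411 and 435 CPM with YJ1206, a 2.40-fold increase (log2 fold change 1.26 ± 0.0574 (SE), adjusted p = 4.06e-17). Each YJ1206 library was above each DMSO library for both genes. The other 5 rose by between 0.63 (mt-Nd5) and 0.97 (mt-Nd4l) on the log2 scale: mt-Nd2 by 0.68, mt-Nd4 by 0.74 and mt-Nd6, the single member on the other mitochondrial strand, by 0.86 (adjusted p = 2.01e-15). mt-Nd6 stood at 145, 156 and 153 CPM with DMSO and 297, 279 and 245 CPM with YJ1206.

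mt-Cytb, cytochrome b of complex III, had 4139, 4196 and 4067 CPM with DMSO and 6432, 6531 and 6674 CPM with YJ1206 (log2 fold change 0.66). Of the catalytic core of cytochrome c oxidase, mt-Co1 had 7890.3, 7727 and 7620.4 CPM with DMSO and 13676, 13508 and 13921 CPM with YJ1206 (log2 fold change 0.82 ± 0.0172 (SE), adjusted p = 1.94e-24). mt-Co2 and mt-Co3, the other core subunits, rose by 0.67 and 0.63 on the log2 scale. The 3 libraries of each group stayed close together, with no overlap between DMSO and YJ1206 in any of the 4 genes.

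In ATP synthase, mt-Atp6 (the proton channel subunit) and mt-Atp8 rose more than most. mt-Atp8 had 336, 337 and 322 CPM with DMSO and 778, 762 and 776 CPM with YJ1206, a 2.33-fold increase (log2 fold change 1.22 ± 0.0260 (SE), adjusted p = 2.67e-24). mt-Atp6 had 2835, 2722 and 2639.9 CPM with DMSO and 5413, 5432 and 5629.9 CPM with YJ1206 (log2 fold change 1.01, 2.01-fold). Together with mt-Nd3, these were the 3 mitochondrial members that at least doubled.

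Over the 13 genes the median log2 change was 0.82, with a range of 0.63 to 1.26, beside a median of -0.02 over all 11826 genes tested. All 13 were called higher and did not overlap between groups. Of all genes tested, 37.8% were called higher (76.1% in either direction) and 38.4% lay wholly above the DMSO libraries. The call held for all 13 with library totals in place of TMM (median 0.64) and on TPM values (median 0.49). The change was larger for the shorter genes, which run from 204 to 1824 bases: Spearman's rho of length and log2 fold change was -0.74 across the 13 genes in counts and -0.62 in TPM, a description over genes that overlap and share transcripts. The mean fragment length implied by the deposited counts and TPM was 255, 266 and 263 bases with DMSO and 247, 252 and 246 with YJ1206; its part in the relation to length was not tested.

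**Figure D2:**
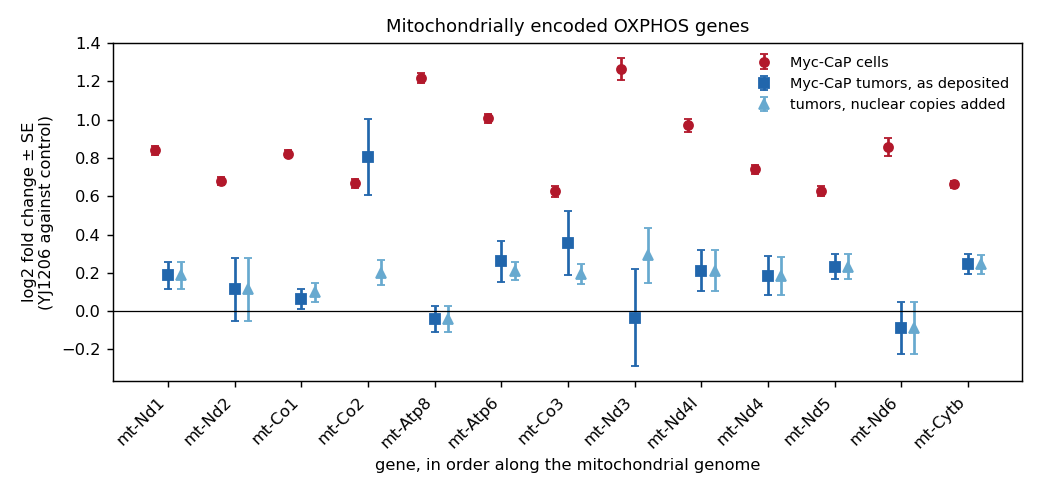
Log2 fold change (YJ1206 against control, TMM scaling) of the 13 mitochondrial genes in map order, with bars for the standard error. The series are cells, tumors as deposited, and tumors with the counts of nuclear copies added. All 13 cell values lie between 0.63 and 1.26, and all tumor values as deposited but that of mt-Co2 lie below the lowest of them.

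By TPM, a scale on which genes can be compared, the order of the mitochondrial genes changed little. In the DMSO cells mt-Co2 was highest at 13582 ± 342 TPM, followed by mt-Atp8 at 12055 ± 387, mt-Atp6 at 10574 ± 255 and mt-Co1 at 9824 ± 130 (SD, n = 3). mt-Nd6 was lowest at 937 ± 48.9 TPM. With YJ1206, mt-Atp8 moved to first at 22417 ± 331 TPM and mt-Co2 to second at 17008 ± 448, ahead of mt-Atp6 at 16744 ± 177, a gap to mt-Co2 smaller than the spread between libraries. The highest nuclear member in both groups was Atp5b, the catalytic beta subunit of ATP synthase, at 1418 ± 11.0 and 1445 ± 11.96 TPM (SD, n = 3).

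Of the 85 nuclear genes, 76 were tested in the cells and 9 had too few counts. With TMM scaling, 48 were called higher and 15 lower, with a median log2 change of 0.27; of all genes tested, 37.8% were called higher and 38.3% lower. The groups did not overlap for 46 genes that were higher and 15 that were lower (38.4% and 39.2% of all genes tested, 77.5% together). This split depended on the scaling: with library totals it was 37 higher and 27 lower, and on log2(TPM + 1), fitted with limma, 19 higher and 37 lower. The median of all genes moved with it, from -0.02 to -0.20 and -0.24, and relative to it the median nuclear member stood at 0.28, 0.28 and 0.17. A set of 34 genes was called in the same direction under all 3 scalings: 19 higher and 15 lower. Every gene called lower with TMM was also lower on the other scales, and the genes called on all 3 scales are named as such below.

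Among the complex I subunits, 19 were called higher and 6 lower of 35 with TMM, 15 and 14 with totals, and 8 and 19 with TPM. The largest increases were in accessory subunits, those outside the catalytic core. Ndufa1 had 20.9, 19.2 and 21.6 CPM with DMSO and 39.1, 37.5 and 37.6 CPM with YJ1206, a 1.85-fold increase (log2 fold change 0.89 ± 0.0689 (SE), adjusted p = 4.25e-12). Ndufa5 had 52.8, 49.99 and 48.1 CPM with DMSO and 92.4, 88.9 and 96.6 CPM with YJ1206, a 1.84-fold increase (log2 fold change 0.88 ± 0.0478 (SE), adjusted p = 1.98e-15). Both groups were well apart in both genes. Also higher on all scales were Ndufa7, Ndufa8, Ndufa9, Ndufb11, Ndufs5 and Ndufs6, by 0.52 to 0.65 on the log2 scale with TMM.

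Ndufv1, which carries the FMN that takes electrons from NADH, fell. It was at 169.9, 166 and 175 CPM with DMSO and 124, 120.3 and 126 CPM with YJ1206 (log2 fold change -0.46 ± 0.0367 (SE), adjusted p = 6.44e-12). Ndufs1, the largest iron-sulfur subunit of the same arm, fell slightly, by 0.12 on the log2 scale (adjusted p = 0.00607). Ndufc1, a small accessory subunit of the membrane arm, had 15.9, 15.9 and 13.4 CPM with DMSO and 9.08, 9.57 and 11.98 CPM with YJ1206 (log2 fold change -0.56 ± 0.112 (SE), adjusted p = 6.22e-05). The other complex I genes lower on all scales were Ndufs8, Ndufb3 and Ndufa6, at -0.41, -0.40 and -0.20. Grouping the 35 genes after their values were seen into the 7 nuclear core subunits and the 28 accessory ones, 1 core subunit was called higher and 3 lower (median -0.03), against 18 and 3 accessory ones (median 0.31). With TPM the core had 0 higher and 6 lower, and the accessory subunits 8 and 13.

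Complex II, succinate dehydrogenase, which feeds electrons from the tricarboxylic acid cycle into the chain, was split within its 4 subunits. Sdhb, the iron-sulfur subunit, had 118, 125 and 124 CPM with DMSO and 69.1, 68.5 and 72.8 CPM with YJ1206, a drop to 0.573 of the DMSO level (log2 fold change -0.80 ± 0.0410 (SE), adjusted p = 5.30e-16). Sdhd, a membrane anchor named here after its value was seen, had 149.7, 143 and 143 CPM with DMSO and 220.3, 230.3 and 241 CPM with YJ1206 (log2 fold change 0.67 ± 0.0365 (SE), adjusted p = 2.50e-15). Sdhc, the other anchor and also named after its value was seen, fell by 0.23 on the log2 scale (adjusted p = 4.46e-04). Both anchors form 1 heme-binding domain in the membrane, and their transcripts moved in opposite directions on all 3 scales. Sdha, the FAD-bearing catalytic subunit, had 193, 186 and 188 CPM with DMSO and 204, 198 and 204 CPM with YJ1206 (log2 fold change 0.10 ± 0.0329 (SE), adjusted p = 0.00957), a direction that turned with totals (-0.089) and TPM (-0.076). Neither Sdha, Sdhb nor Sdhd shared any 31-base word with another annotated gene.

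**Figure D3:**
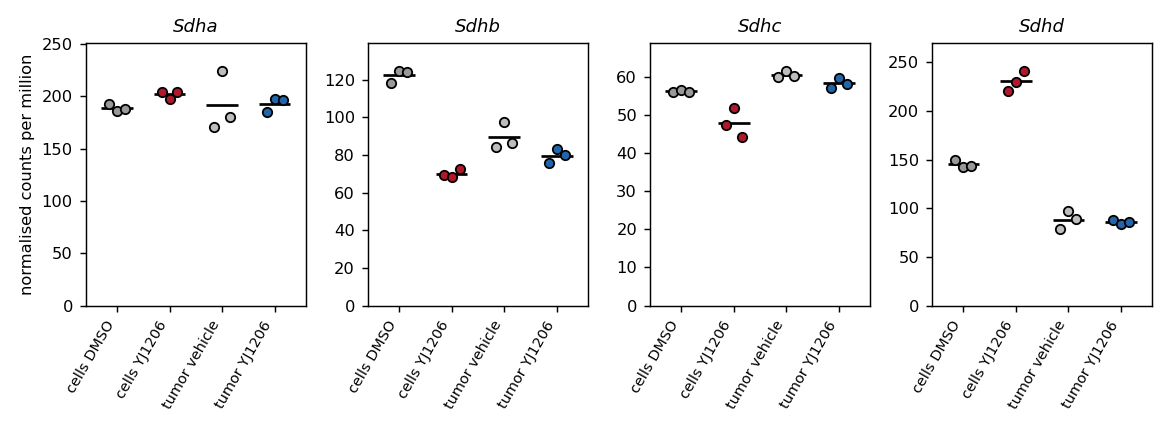
Normalized CPM of the 4 succinate dehydrogenase subunits in each library of cells and tumors, with points for libraries and bars for the group mean. In the cells Sdhb falls from 118 to 125 CPM down to 68.5 to 72.8 CPM while Sdhd rises from 143 to 150 CPM up to 220 to 241 CPM. In the tumors no subunit was called with TMM.

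Complex III, the cytochrome bc1 complex, was mostly higher: 7 of 8 genes were called higher and 1 lower with TMM, 6 and 1 with totals, and 4 and 1 with TPM. Uqcrfs1, the Rieske iron-sulfur protein, had 126, 133 and 125 CPM with DMSO and 168, 172 and 186 CPM with YJ1206 (log2 fold change 0.45 ± 0.0398 (SE), adjusted p = 6.11e-11), and was higher on all 3 scales, as were Uqcrh, Uqcr10 and Uqcrq at 0.54, 0.57 and 0.61. Uqcrc1, a core subunit, rose by 0.36 with TMM (adjusted p = 3.53e-11) and was not called with TPM (0.04). Uqcr11 was the 1 subunit that fell, by 0.21 on the log2 scale (adjusted p = 0.00104).

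Complex IV had 12 genes tested, of which 11 were called higher and 0 lower with TMM, 7 and 1 with totals, and 4 and 4 with TPM. Cox7a2l, which joins complexes III and IV into supercomplexes, changed most of all nuclear members. It had 52.8, 51.0 and 52.8 CPM with DMSO and 131, 127 and 131 CPM with YJ1206, a 2.48-fold increase (log2 fold change 1.31 ± 0.0401 (SE), adjusted p = 7.31e-21), and it was the only nuclear member to pass 2-fold. Cox4i1, an early-assembling subunit that binds ATP and ADP, had 239, 232 and 239.6 CPM with DMSO and 367, 373 and 387 CPM with YJ1206 (log2 fold change 0.66 ± 0.0299 (SE), adjusted p = 3.20e-17). Cox6c and Ndufa4, at 0.69 and 0.67, were also higher on all 3 scales. Cox5a rose by 0.23 with TMM (adjusted p = 3.51e-06) but was at 0.04 with totals, not called, and at -0.12 with TPM.

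With TMM, ATP synthase was the most divided of the larger complexes, with 9 genes called higher and 6 lower of 17. The counts were 8 and 8 with totals, and 2 and 10 with TPM, where most of its calls were lower. Atp5pb, the b subunit of the stalk that holds the catalytic head in place, had 279, 262 and 259.9 CPM with DMSO and 182, 179 and 185 CPM with YJ1206 (log2 fold change -0.55 ± 0.0341 (SE), adjusted p = 3.07e-14). Atp5g2, Atp5k, Atp5d, Atp5o and Atp5c1 were the other 5 that fell, by between 0.10 and 0.27 on the log2 scale. Of the catalytic head, Atp5b had 1437, 1459 and 1426 CPM with DMSO and 1797, 1814 and 1858 CPM with YJ1206 (log2 fold change 0.34 ± 0.0211 (SE), adjusted p = 3.79e-14) and was not called with TPM (0.03). Atp5a1, its alpha partner, was not called with TMM at 0.03 (adjusted p = 0.19), a value that turned to -0.15 with totals and -0.27 with TPM. Atp5e and Atp5md were higher on all 3 scales, at 0.61 and 0.47.

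**Figure D4:**
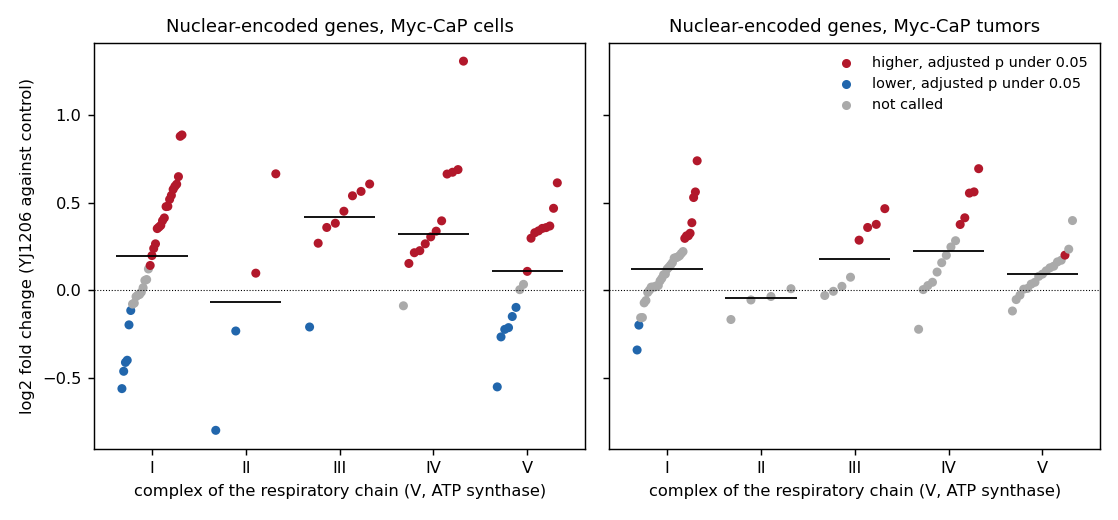
Log2 fold change (YJ1206 against control, TMM scaling) of each tested nuclear gene, grouped by complex, for cells and tumors. Points are colored by call (higher, lower or not called), and lines mark the median of each complex. In the cells the values run from -0.80 (Sdhb) to 1.31 (Cox7a2l), and in the tumors the called ones run from -0.34 (Ndufv1) to 0.74 (Ndufa1).

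The nuclear members are short genes, with a median span of 7.37 kb against 21.8 kb over all genes tested in the cells. Span and log2 fold change were almost unrelated in these data: Spearman's rho was -0.03 across the 76 members and -0.05 across all genes with a span. Genes over 100 kb had a median log2 change of -0.10 over all genes tested, and only 1 member was that long.

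In the tumors, the mitochondrial genes moved far less than in the cells. Their share of TPM was 6.69, 5.25 and 6.24% with vehicle and 7.04, 6.53 and 6.55% with YJ1206 (exact permutation p = 0.3), so the lowest value was vehicle library 2 and the groups overlapped. As a share of counts it was 2.39% against 2.78%, with no overlap (exact permutation p = 0.1). The median log2 change was 0.19, 3 of the 13 were called higher and 0 lower, and 5 did not overlap between groups; of all 15558 genes tested, 11.9% were called higher (26.8% in either direction) and 21.8% lay wholly above the vehicle libraries. The 3 called were mt-Co2, mt-Cytb and mt-Nd5. mt-Cytb had 3839, 3596 and 3808 CPM with vehicle and 4396, 4499.6 and 4428 CPM with YJ1206 (log2 fold change 0.24 ± 0.0510 (SE), adjusted p = 0.0127). mt-Nd5 had 2667, 2351 and 2562 CPM with vehicle and 3112, 2855 and 2931 CPM with YJ1206 (log2 fold change 0.23 ± 0.0661 (SE), adjusted p = 0.0384). Both had vehicle library 2 at the bottom, and their YJ1206 libraries were all above all vehicle libraries.

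mt-Co2 stood out at 1707, 967 and 1214 CPM with vehicle and 2590.2, 2156 and 2042 CPM with YJ1206, a 1.75-fold difference (log2 fold change 0.80 ± 0.199 (SE), adjusted p = 0.0233). Its nuclear copy Gm28661 was listed with 45068, 85019 and 42323 counts in the vehicle tumors and 30443, 58905 and 48762 in the YJ1206 tumors, more than mt-Co2 itself in all libraries but YJ1206 library 1. The mt-Co2 counts were 37898, 25815 and 18807 with vehicle and 47468, 48221 and 39650 with YJ1206. In the 6 cell libraries Gm28661 had 0 counts after rounding, while mt-Co2 was among the highest members. With the counts of its copies added to it, mt-Co2 was at 3736, 4155 and 3948 CPM with vehicle and 4252, 4792 and 4555 CPM with YJ1206, and its log2 fold change fell to 0.20 ± 0.0656 (SE, adjusted p = 0.0598), no longer called.

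Other copies also had many counts in the tumors. Gm28437, the copy of mt-Co3, had 17263, 36739 and 11342 counts with vehicle and 12871, 25601 and 16019 with YJ1206, and 0 in the cells. Gm10925, the copy of mt-Atp6, had 2725, 14923 and 4075 against 3148, 5359 and 8305. Vehicle library 2, the deepest library, had the highest count of each of the 3 copies. With all copies added to their mitochondrial genes, an alternative chosen after seeing the data, 4 genes were called higher in the tumors: mt-Atp6 at 0.21 (adjusted p = 0.0175), mt-Co3 at 0.19 (adjusted p = 0.0336), mt-Cytb at 0.25 (adjusted p = 0.0110) and mt-Nd5 at 0.23 (adjusted p = 0.0360). The mitochondrial share of TPM in the tumors became 8.31, 7.49 and 8.16% with vehicle and 8.66, 8.52 and 8.51% with YJ1206, groups that no longer overlapped, whereas the cell values hardly moved (9.39, 8.89 and 8.90% against 13.3, 13.3 and 13.4%).

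**Figure D5:**
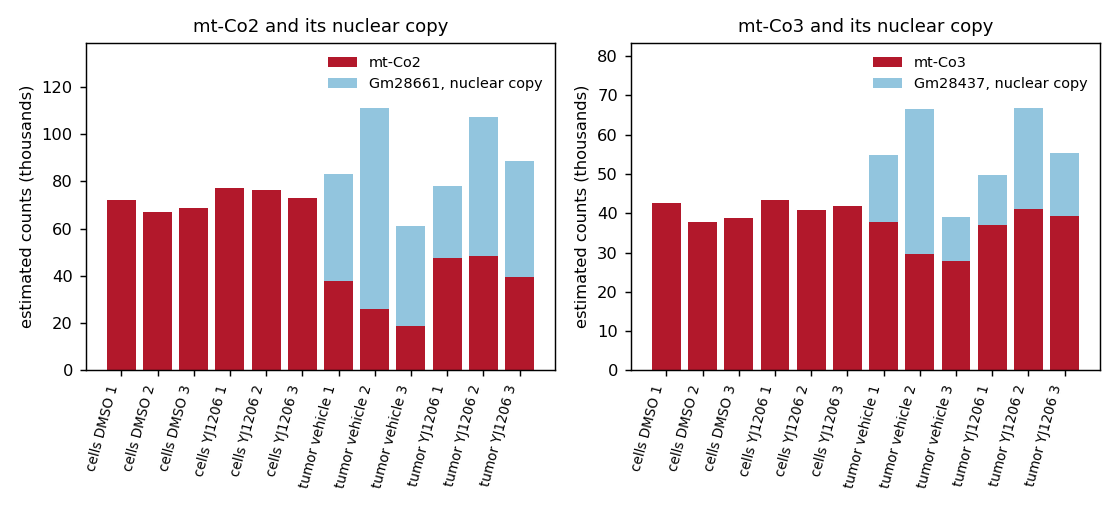
Estimated counts in the 12 libraries, as stacked bars, of mt-Co2 with its nuclear copy Gm28661 (left) and of mt-Co3 with its nuclear copy Gm28437 (right). Both copies are at 0 in the cells. In the tumors Gm28661 has between 30443 and 85019 counts and Gm28437 between 11342 and 36739.

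The calls in the tumor mitochondrial genes also rested on single libraries. Without vehicle library 3 or without YJ1206 library 3, 0 of the 13 were called (mt-Co2 was then at 0.76 and 0.87, adjusted p = 0.0932 and 0.0642), without YJ1206 library 1 or 2 only 1 was, and without vehicle library 1 there were 5. Over all genes the calls in these fits were 1938, 1877, 2938, 2739 and 3629, against 4177 with all libraries, while the median over the 13 genes was 0.20 and 0.19 without either library 3, against 0.19 with all. With libraries 1 and 2 of each group alone, 0 were called, when 1 gene was called in the whole table. mt-Nd3 had 69.8, 36.3 and 47.8 CPM with vehicle and 37.7, 57.2 and 55.2 CPM with YJ1206 and mt-Nd6 143, 211 and 168 CPM with vehicle and 152, 171 and 169 CPM with YJ1206; both groups overlapped and neither gene was called.

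Of the nuclear genes, 78 were tested in the tumors and 7 had too few counts; 18 were called higher, 2 lower and 58 neither, with a median log2 change of 0.11 beside 11.9% of all genes called higher and 14.9% lower. Here the scaling mattered less: totals gave 19 and 2, DESeq2 19 and 2, and TPM 15 and 3, and 15 genes were called higher and 1 lower under TMM, totals and TPM alike. The groups did not overlap for 29 genes that were higher and 5 that were lower (21.8% and 22.8% of all genes tested, 44.6% together). The nuclear share of TPM was 2.25, 2.57 and 2.38% with vehicle (mean 2.40 ± 0.163, SD) and 2.66 ± 0.00204% (SD, n = 3) with YJ1206, with no overlap between groups (exact permutation p = 0.1). Leaving out 1 library at a time gave 7 to 31 genes higher: 31 without vehicle library 2, 7 without YJ1206 library 3, 8 without vehicle library 3, 10 without YJ1206 library 2 and 11 without YJ1206 library 1. The calls over all genes moved with them, from 4177 with all libraries to 5724, 1877, 1938, 2739 and 2938 in the same order; its part in the counts of members was not tested. Libraries 1 and 2 alone gave 0, with 15 higher and 1 lower at an unadjusted p under 0.05.

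In complex I, 8 genes were called higher and 2 lower of 35. Ndufa1 again rose, from 36.2, 41.8 and 41.1 CPM with vehicle to 64.5, 68.4 and 65.9 CPM with YJ1206 (1.67-fold, log2 fold change 0.74 ± 0.0760 (SE), adjusted p = 0.00142). Ndufv1 again fell, from 136, 136 and 131 CPM to 108, 108 and 101 CPM (log2 fold change -0.34 ± 0.0535 (SE), adjusted p = 0.00468). Ndufs1 had 131, 142 and 137 CPM with vehicle and 119, 118 and 119.9 CPM with YJ1206 (log2 fold change -0.20 ± 0.0534 (SE), adjusted p = 0.0305), but it lost its call with the replicate number as a block (-0.20, adjusted p = 0.0613), on TPM (-0.17), without vehicle library 3 (-0.20, adjusted p = 0.118) and without any of YJ1206 libraries 1, 2 and 3 (-0.20, -0.20 and -0.21). Ndufa1 and Ndufv1 kept theirs when any single library was left out and lost it with libraries 1 and 2 alone (0.77 and -0.33, adjusted p = 0.134 and 0.169). The 7 core subunits had 0 called higher and 2 lower and the 28 accessory ones 8 and 0, the same direction of split as in the cells; on TPM the counts were 0 and 2 against 7 and 0. Ndufv3 and Ndufa7, both accessory, stood at 0.56 and 0.53.

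In complex II no subunit was called with TMM. Sdhb was at -0.17 (adjusted p = 0.141), Sdhd at -0.04 and Sdha at 0.01, with libraries that overlapped for Sdha. On log2(TPM + 1), fitted with limma, Sdhb was called lower (-0.24, adjusted p = 0.0343). For 2 of the 4 subunits all YJ1206 libraries lay below all vehicle libraries, as they did for 22.8% of all genes tested. Complex III had 4 of 8 genes called higher and 0 lower, among them Uqcrh at 0.47. Uqcrc1 and Uqcrfs1, at 0.02 and -0.03, were not called.

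Complex IV had 5 of 14 tested genes called higher and 0 lower, with totals and TPM giving the same counts. Cox7a2l had 84.3, 116 and 98.3 CPM with vehicle and 159, 161 and 164 CPM with YJ1206 (log2 fold change 0.70 ± 0.110 (SE), adjusted p = 0.00491). Cox6a1, the widely expressed form of subunit 6A, had 117, 153 and 136 CPM with vehicle and 198, 198 and 203 CPM with YJ1206 (log2 fold change 0.56 ± 0.0949 (SE), adjusted p = 0.00607). In both genes vehicle library 1 was lowest and library 2 highest of the vehicle group, and all YJ1206 libraries lay above. Both kept their call when any single library was left out and lost it with libraries 1 and 2 alone (0.67 and 0.55, adjusted p = 0.149 and 0.161). Cox4i1 and Cox6c stood at 0.38 and 0.56 (adjusted p = 0.00552 and 0.00436), and Cox6c became the nuclear member with the highest TPM, from 890 ± 81.3 to 1248 ± 13.8 (SD, n = 3). ATP synthase had 1 of 17 genes called higher with TMM, 2 with totals and 0 with TPM; Atp5b was at 0.11 (adjusted p = 0.488) and Atp5a1 at -0.05 (adjusted p = 0.495).

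Muscle isoforms of complex IV were read beside the muscle markers. Cox6a2, the heart and skeletal muscle form of subunit 6A, had 62, 1 and 20 counts in the vehicle tumors and 0, 0 and 2 in the YJ1206 tumors. Cox8b, the muscle form of subunit 8, had 34, 1 and 8 counts with vehicle and 0 in all YJ1206 libraries. Their order over the vehicle libraries, 1 highest and 2 lowest, was that of Acta1, and both were at 0 or 1 count in every cell library. Cox7a1, another muscle form that other tissues also express, had 45, 60 and 28 counts with vehicle and 31, 55 and 38 with YJ1206, with library 2 highest (log2 fold change 0.00). The part of muscle tissue in the other members was not tested.

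Forms tied to other settings were low. Ndufa4l2, a hypoxia-induced relative of Ndufa4, had 68, 81 and 46 counts with vehicle and 30, 75 and 53 with YJ1206 (log2 fold change -0.22 ± 0.262, SE, adjusted p = 0.57), and 0 in the cells. Cox4i2, a form linked to lung and to low oxygen, had 3 to 18 counts in the vehicle tumors and 6 to 8 in the YJ1206 tumors. The germline-linked forms Cox6b2, Cox7b2 and Cox8c never passed 5 counts in any library. A second Atp5o entry was at 0 throughout.

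Of the other cell type markers in the tumors, all leukocytes (8 genes) summed to 229 to 412 TPM with vehicle and 493 to 549 with YJ1206 with 1 gene called higher, and 4 of 10 macrophage genes were called higher (361 to 562 against 411 to 529 TPM). Fibroblast markers summed to 240 to 747 TPM with vehicle and 170 to 371 with YJ1206, with 1 of 9 lower. Neutrophil markers summed to 21.98 to 29.6 TPM against 12.2 to 18.2, endothelial markers to 62.4 to 64.4 against 66.8 to 74.9, and adipocyte markers to 75.8 to 88.9 against 94.4 to 118. The part of these host cell types in the values of the nuclear members was not tested.

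The effects of YJ1206 in cells and tumors were compared by a test of the difference (an interaction term over all 12 libraries). The 4 groups share the same estimate of the spread in this fit. edgeR's common coefficient of variation between libraries was 0.104 here, against 0.032 in the cells alone and 0.139 in the tumors alone. The test thus takes too low a spread for the tumors and too high a spread for the cells. For 11 of the 13 mitochondrial genes the effect was lower in the tumors, by a median of 0.68 on the log2 scale over all 13, and for 0 it was higher; of all 15328 genes, 26.0% were lower and 20.9% higher (46.8% together). The count was 8 on TPM, 10 with totals and 11 to 12 when 1 library was left out. Without tumor vehicle library 1 it was also higher for 1 gene, mt-Co2, at 0.35 (adjusted p = 0.0307), against 0.10 (adjusted p = 0.748) with all libraries. The exceptions were mt-Co2 and mt-Co3, and with the nuclear copies added these also differed, by -0.50 (adjusted p = 5.72e-05) and -0.46 (adjusted p = 8.91e-05). The largest differences were those of mt-Nd3 and mt-Atp8, at -1.33 and -1.29. With the nuclear copies added they were at -0.99 and -1.29. Gm28438, the copy of mt-Nd3, had 3136 to 5083 counts in the tumor libraries and 168 to 307 in the cell libraries.

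For the nuclear genes the difference was in both directions, and scaling decided the balance: 8 were more positive in the tumors and 23 more negative of 78 with TMM, 26 and 11 with totals, and 33 and 7 with TPM. The median difference over all genes moved with the scaling, at -0.0092, 0.20 and 0.13, and the nuclear median relative to it was -0.11, -0.099 and 0.069. Sdhb was among the more positive (0.60), since with TMM it fell in the cells and was not called in the tumors, and Ndufa5 among the more negative (-0.89). Cox7a2l differed by -0.64, rising in both.

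The cell and tumor experiments share no samples, so their calls can be set side by side. Of the 76 nuclear genes tested in both, 15 were called higher in both, which is 19.7% against 6.51% of the 11235 genes tested in both. With totals 11 were (14.5% against 5.11%), and on TPM 8 were (10.5% against 2.71%). With TMM the members were also called higher more often in each experiment alone. The shares were 63.2% against 37.8% of all genes tested in the cells and 23.1% against 11.9% in the tumors. The part of these shares in the calls common to both was not tested. With TMM 2 were called lower in both, Ndufv1 and Ndufs1, and 2, Ndufa6 and Uqcr11, were lower in the cells and higher in the tumors. On TPM 3 were lower in both, Ndufv1, Ndufs8 and Sdhb, and 7 (9.21% against 3.06%) were lower in the cells and higher in the tumors. With TMM 56 (73.7%) had the same sign, against 53.3% of all genes, and on TPM the shares were 56.6% and 57.7%. With TMM Spearman's rho of the log2 changes was 0.43 across the 76 genes against 0.13 across all, a description over genes that are not independent.

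Genes that serve the mitochondrial genome or the complexes without being subunits were listed for comparison. Of 31 genes of mitochondrial DNA transcription and RNA processing tested in the cells, 15 were called higher and 9 lower (48.4% and 29.0%). In the tumors 2 were higher and 7 lower (6.45% and 22.6%). Of all genes tested, 37.8% were called higher and 38.3% lower in the cells, and 11.9% and 14.9% in the tumors. Polrmt, the mitochondrial RNA polymerase, had 22.9, 20.9 and 19.4 CPM with DMSO and 28.4, 27.2 and 28.4 CPM with YJ1206 (log2 fold change 0.41, adjusted p = 2.56e-05), while in the tumors it was not called (log2 fold change -0.26, adjusted p = 0.0598). Tfam, which packages mitochondrial DNA and opens its promoters, rose slightly in the cells (log2 fold change 0.23, adjusted p = 1.51e-04) and fell in the tumors, where it had 40.2, 37.6 and 41.7 CPM with vehicle and 28.1, 28.2 and 30.5 CPM with YJ1206 (log2 fold change -0.46, adjusted p = 0.00594). Lrpprc, which stabilizes mitochondrial mRNAs, was lower in both, at log2 fold change -0.08, adjusted p = 0.047 in the cells and log2 fold change -0.39, adjusted p = 0.0122 in the tumors. The largest changes of the list were Fastkd1 and Fastkd3 in the cells, RNA-binding proteins of mitochondria, at -1.49 and 1.08, and Tfb1m in the tumors at -0.68.

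Of 11 transcription factors and coactivators of the nuclear members tested in the cells, 3 were called higher and 7 lower. These are 27.3% and 63.6%, against 37.8% and 38.3% of all genes tested. In the tumors 0 were higher and 5 lower (0% and 45.5%, against 11.9% and 14.9%). Gabpb2, a subunit of the ETS-family factor GABP, had 236, 232 and 238 CPM with DMSO and 64.5, 58.6 and 64.4 CPM with YJ1206 (log2 fold change -1.91, adjusted p = 2.32e-24). In the tumors Nrf1, which activates many nuclear respiratory genes, had 64.1, 53.6 and 62.8 CPM with vehicle and 39.6, 38.1 and 39.6 CPM with YJ1206 (log2 fold change -0.62, adjusted p = 0.0031), and the coactivator Pprc1 stood at -0.69. Ppargc1a, the coactivator PGC-1 alpha, had a small decrease in the cells with libraries that overlapped (log2 fold change -0.21, adjusted p = 0.021) and was not called in the tumors (log2 fold change 0.10, adjusted p = 0.47).

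Among 49 assembly factors, 16 were called higher and 18 lower in the cells (32.7% and 36.7%, near the 37.8% and 38.3% of all genes tested). In the tumors 2 were higher and 7 lower (4.08% and 14.3%, against 11.9% and 14.9%). The largest changes were Ndufaf3, a complex I assembly factor, at 5.18, 4.90 and 4.88 CPM with DMSO and 1.57, 2.19 and 1.38 CPM with YJ1206 (log2 fold change -1.54, adjusted p = 3.04e-07), and Pet117, at 2.44 but under 3 CPM in every cell library. In the tumors Ndufaf4 and Taco1, the translational activator of mt-Co1, stood at -0.44 and -0.42. Of 8 subunits and carriers outside the name rule, 4 were higher and 4 lower in the cells (50% each, against 37.8% and 38.3%), led by Higd2a (1.36) and Coq9 (-0.88). In the tumors 0 were higher and 1 was lower (12.5%, against 14.9%). This was Cycs, cytochrome c, which had 93.1, 86.2 and 90.3 CPM with vehicle and 60.6, 66.0 and 70.4 CPM with YJ1206 (log2 fold change -0.45, adjusted p = 0.00508). The tricarboxylic acid cycle had 7 of 18 genes higher and 8 lower in the cells (38.9% and 44.4%, against 37.8% and 38.3%), led by Suclg1 at 1.27 and Dld at 0.85. In the tumors it had 2 higher and 4 lower (11.1% and 22.2%, against 11.9% and 14.9%). There Pcx, pyruvate carboxylase, rose from 58.5, 90.3 and 71.7 CPM to 206, 231 and 224 CPM.

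Promoters of 68 nuclear members were read from RefSeq (GRCm38.p6), as 250 bases before and 50 after each gene's start. The NRF1 motif, a palindrome of GC-rich repeats searched on both strands as were all motifs, was found in 17, or 25%, against 5.19% of 27025 genes. The YY1 motif AAGATGGCG was in 10.3% against 1.64%, the ERR motif TGACCTTG in 5.88% against 1.76%, and the ETS motif CCGGAAGT in 7.35% against 4.31%. The CCAAT box was in 44.1% against 41.1% and TATAAA in 11.8% against 15.7%. Of the 17 members with an NRF1 match, 11 were called higher and 5 lower in the cells, and of the 51 without one, 30 and 8; in the tumors the counts were 2 and 0 against 13 and 1.

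The promoters of 4 members named above are shown because they cover the largest changes in either direction and the opposite pair of complex II. Capitals mark matches to any of these motifs on either strand. Sdhd (chr9:50603800-50604099, minus strand) holds an NRF1 and an ERR match, Ndufa5 (chr6:24527641-24527940, minus strand, 1 of 2 annotated starts) an NRF1 match, Sdhb (chr4:140961021-140961320, plus strand) a CCAAT box read on the other strand, and Cox7a2l (chr17:83514284-83514583, minus strand) none of them.
Sdhd: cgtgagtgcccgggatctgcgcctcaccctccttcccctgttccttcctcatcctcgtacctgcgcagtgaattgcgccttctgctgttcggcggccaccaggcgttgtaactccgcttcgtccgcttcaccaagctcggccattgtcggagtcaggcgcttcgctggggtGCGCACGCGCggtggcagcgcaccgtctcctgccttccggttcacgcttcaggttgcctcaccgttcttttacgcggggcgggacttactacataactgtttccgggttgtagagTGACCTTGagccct
Ndufa5: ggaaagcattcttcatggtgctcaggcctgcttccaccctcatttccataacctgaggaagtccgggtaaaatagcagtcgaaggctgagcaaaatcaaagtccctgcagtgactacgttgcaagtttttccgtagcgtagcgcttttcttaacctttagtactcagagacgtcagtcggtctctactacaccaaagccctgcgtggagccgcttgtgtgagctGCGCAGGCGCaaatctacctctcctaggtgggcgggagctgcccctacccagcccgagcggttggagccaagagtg
Sdhb: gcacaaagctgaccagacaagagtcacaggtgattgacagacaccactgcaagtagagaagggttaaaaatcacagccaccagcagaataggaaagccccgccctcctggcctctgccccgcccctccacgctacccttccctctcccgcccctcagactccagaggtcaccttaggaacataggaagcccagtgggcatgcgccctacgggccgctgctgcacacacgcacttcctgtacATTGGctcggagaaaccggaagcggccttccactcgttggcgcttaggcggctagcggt
Cox7a2l: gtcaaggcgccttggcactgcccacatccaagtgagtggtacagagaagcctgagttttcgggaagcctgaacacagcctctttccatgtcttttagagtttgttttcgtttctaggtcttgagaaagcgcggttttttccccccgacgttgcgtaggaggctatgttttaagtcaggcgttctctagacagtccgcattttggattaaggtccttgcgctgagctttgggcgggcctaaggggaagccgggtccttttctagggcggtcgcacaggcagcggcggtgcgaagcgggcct
Of those shown, Sdhd and Ndufa5, which rose in the cells, carried an NRF1 match. Cox7a2l, which rose most, and Sdhb, which fell, did not. Ndufa1, which is not shown and rose about as much as Ndufa5, had no NRF1 match either. Over all members the counts above show no such division.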

How the data were processed

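RNA sequencing was done on 6 cell and 6 tumor samples. The protocol in the labels and the study's methods name rRNA depletion (KAPA RiboErase), whereas the labels' molecule entry gives polyA RNA for the cells and total RNA for the tumors. Which selection the cell libraries had is not settled by these sources, and no spike-in is named. The deposited estimated counts and TPM values were made by the authors with kallisto against GRCm38 (mm10), per the processing notes in the labels; the kallisto version, the annotation release and the strand setting are not given in the sources used here.

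Estimated counts were rounded and tested with edgeR 4.0.16 in R 4.3.3 (TMM, filterByExpr, quasi-likelihood test, Benjamini-Hochberg over all genes tested, threshold 0.05), separately in cells and tumors, and in 1 fit over the genes in both tables for the difference between them. TPM values were tested with limma 3.58.1 on log2(TPM + 1), which understates changes of low genes, and DESeq2 1.42.0 was an alternative. The fits were checked on simulated counts. The ratio and the TPM shares were tested by exact permutation of libraries. The members and the gene lists were chosen with earlier results of these data known.

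Named genes were all 13 mitochondrial members, fixed core subunits (Ndufs1, Ndufv1, Sdha, Sdhb, Uqcrc1, Uqcrfs1, Cox4i1, Cox5a, Atp5a1, Atp5b), tissue isoforms, and the 3 called nuclear members with the largest change in each direction that had a mean of at least 5 CPM and no overlap between groups (2 in the tumors for decreases). Of other lists, the called genes with the largest change and Tfam, Polrmt, Lrpprc and Ppargc1a were named. All other genes were named after their values were seen. Counting nuclear copies with their mitochondrial gene (copies sharing at least 25% of its 31-base words) was an alternative added after seeing the data. Gene spans, transcripts and the mitochondrial sequences were read from GENCODE annotation and transcripts of GRCm38. All columns of per-sample values belong to 1 of the 12 samples.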

Additional observations from a re-analysis of the deposited data

Results flagged for a closer look

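The effect of YJ1206 differed between tumors and cells (an interaction test in edgeR, adjusted p under 0.05) for 11 of the 13 mitochondrial genes. Given as the log2 effect in tumors minus that in cells, the differences in complex I were mt-Nd1 -0.68, mt-Nd2 -0.60, mt-Nd3 -1.33, mt-Nd4 -0.59, mt-Nd4l -0.79, mt-Nd5 -0.42 and mt-Nd6 -0.97. In complexes III and IV they were mt-Cytb -0.45 and mt-Co1 -0.79, and in ATP synthase mt-Atp6 -0.78 and mt-Atp8 -1.29. All 11 had the smaller effect in the tumors. With the nuclear copies added, the difference for mt-Nd3 was -0.99. Among the named nuclear genes, the difference was negative for Uqcrc1 at -0.37, Uqcrfs1 at -0.51, Cox4i1 at -0.32, Cox7a2l at -0.64 and Ndufa5 at -0.89. It was positive for Sdhb at 0.60, Atp5pb at 0.40 and Cox6a1 at 0.38. The cells and tumors differed in the RNA type entered in the labels (polyA against total RNA, under the same rRNA depletion protocol), in time of treatment and in the presence of host cells, which cannot be told apart from the material.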

How the results depend on the processing

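In the cells, the 13 mitochondrial calls held under every alternative run, and the log2 ratio of mitochondrial to nuclear TPM of 0.59 became 0.54 with CPM and 0.53 without mt-Atp8. The nuclear genes called lower in the cells rose from 15 to 27 with library totals, 37 with log2(TPM + 1) and 36 with log2(TPM + 0.1), and those called higher fell from 48 to 19 with either pseudocount. In the cells the sign turned with totals for Sdha (-0.089), Atp5a1 (-0.15) and Cox6a1 (-0.034), and with either TPM fit for Sdha (-0.076 and -0.077), Cox5a (-0.12), Atp5a1 (-0.27) and Cox6a1 (-0.21).

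In the tumors, TPM with either pseudocount left 1 mitochondrial gene called higher and turned the uncalled mt-Co1 (-0.0092), Sdha (-0.031 and -0.032), Uqcrc1 (-0.051 and -0.052), Cox5a (-0.026) and Cox7a1 (-0.045 and -0.048). Libraries 1 and 2 alone gave 0 nuclear genes higher, 0 lower and 0 mitochondrial genes higher, and turned Sdha (-0.048), Cox7a1 (-0.040) and Ndufa5 (-0.0047). Cox7a1 was also negative without the filter on low counts (-0.0035) and without the mitochondrial genes in the scaling (-0.0014), and counting nuclear copies with their gene brought mt-Nd3 to 0.29. Leaving out 1 tumor library at a time gave 7 to 31 nuclear genes higher, 1 to 4 lower and 0 to 5 mitochondrial genes higher. It turned the sign of uncalled genes, with log2 ranges of -0.24 to 0.26 for mt-Nd3, -0.065 to 0.28 for mt-Nd2, -0.21 to 0.079 for mt-Nd6, -0.071 to 0.14 for Sdha, -0.066 to 0.14 for Uqcrc1, -0.070 to 0.041 for Uqcrfs1, -0.015 to 0.12 for Cox5a, -0.16 to 0.12 for Cox7a1, -0.47 to 0.0088 for Ndufa4l2 and -0.015 to 0.072 for Ndufa5. The cause of these changes was not tested.

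Libraries with the same number did not deviate together, so the numbers were not taken as pairs. Their correlations of deviations from the group means lay between -0.03 and 0.01, against -0.03 to 0.04 for libraries with other numbers. With a replicate block the calls were 49 higher and 16 lower nuclear genes and 13 mitochondrial ones in the cells, 15, 1 and 3 in the tumors, where Ndufs1 lost its call (-0.20, adjusted p = 0.0613) and Cox7a1 was at -0.0015. Precision is limited by 3 libraries a group and, for the mitochondrial genes in the tumors, by reads shared with nuclear copies.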
